A study of Homo sapiens with 12 samples.

Results

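The genes described are 8 epithelial keratins (KRT7, KRT8, KRT80, KRT17, KRT18, KRT19, KRT20 and KRT23) out of 57820 gene IDs counted in AsPC-1, an established human pancreatic cancer line. They were taken as a named list and found by pairing Ensembl IDs with symbols, and all 8 were matched and passed the filter on low counts. The list was drawn up with results of these data known, and KRT23 was chosen by its measured levels, for an ARNT-dependent low level in hypoxia. Its values are therefore given as a description with no test, and every count of keratins called is over the other 7. Poly(A) RNA was sequenced from 12 libraries in 4 groups of 3 (replicates A, B and C). The groups were a scrambled siRNA at 21% O2 (normoxia siControl), an siRNA against ARNT at 21% O2 (normoxia siARNT), and the same 2 siRNAs with 24 h at 1% O2 (hypoxia siControl and hypoxia siARNT). All cells carried a transfected siRNA and were harvested 48 h after transfection, and 1 cell line was used throughout. The design asks what part of the response to low oxygen passes through HIF, the hypoxia-inducible factor, of which ARNT is the constant partner.

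Keratins are the intermediate filament proteins of epithelia, and a filament needs 1 type I and 1 type II chain in equal amount. KRT8 (type II) and KRT18 (type I) are the primary pair of simple epithelia. KRT7 (type II) and KRT19 (type I) are added in ductal epithelium, including that of the pancreas, and KRT20 (type I) marks intestinal and gastric epithelium and some tumours of the gastrointestinal tract. KRT17 (type I) is a keratin of basal cells and of stressed epithelium, KRT23 is a type I keratin, and KRT80 is a type II keratin of epithelial cells.

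The total of gene counts ran from 38.53 to 84.34 M per library. The knocked-down gene followed the labels in every library: ARNT was at 60.7 to 72.2 counts per M reads (CPM) in the 6 siControl libraries and at 12.8 to 16.0 CPM in the 6 siARNT libraries. CA9, a HIF target that reports hypoxia, was at 105 to 130 CPM in hypoxia siControl and at 11.3 to 31.1 CPM in the other 9 libraries. The 6 epithelial markers examined that are not keratins (EPCAM, CDH1, CLDN4, CLDN7, ESRP1 and MUC1) had a summed level of 1100 to 1170 CPM in normoxia siControl, 1340 to 1380 in normoxia siARNT, 1230 to 1290 in hypoxia siControl and 1290 to 1410 in hypoxia siARNT. Most of this sum was EPCAM, at 900 CPM on average. Acinar, endocrine and endothelial markers summed to under 1 CPM in every library. LUM (449 CPM on average) and LYZ (186 CPM) were high in this line, while 6 of 8 fibroblast markers (COL1A1, COL1A2, COL3A1, DCN, PDGFRA and PDGFRB) and 3 of 5 leukocyte markers (PTPRC, CD3E and ITGAM) stayed under 1 CPM. The fibroblast list summed to 405 to 458 CPM in normoxia siControl, 340 to 410 in normoxia siARNT, 571 to 597 in hypoxia siControl and 370 to 472 in hypoxia siARNT, nearly all of it LUM. The leukocyte list, of which CD3E was at 0 in every library, summed to 213 to 230 CPM in normoxia siControl, 165 to 189 in normoxia siARNT, 185 to 220 in hypoxia siControl and 130 to 159 in hypoxia siARNT, so that siARNT lay below siControl without overlap at both oxygen levels. The part of these lists in the keratin results was not tested.

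The libraries differed in how strongly they represented GC-rich genes, and this touches most of the keratins. The slope of a library's log2 level on gene GC content, relative to the mean of the 12 libraries, was 0.431 per 10 points of GC in normoxia siARNT replicate B and 0.245 in hypoxia siARNT replicate C, against -0.213 to 0.128 in the other 10. The longest annotated transcripts of KRT7 and KRT19 hold 62.9 and 61.8% GC, those of KRT17, KRT80, KRT8 and KRT18 hold 58.1, 56.8, 56.2 and 55.7%, and those of KRT23 and KRT20 hold 50.3 and 45.7%, against a median of 47.7% over tested genes. Changes of the keratins were therefore fitted without a GC term and also with each library's smooth trend on GC taken out. The latter is called the GC-corrected fit. Levels, overlaps of groups and ratios are uncorrected unless stated. The normoxia siARNT group holds the library with the steepest slope, and the part of GC in the uncorrected differences was tested only through that correction.

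**Figure D1:**
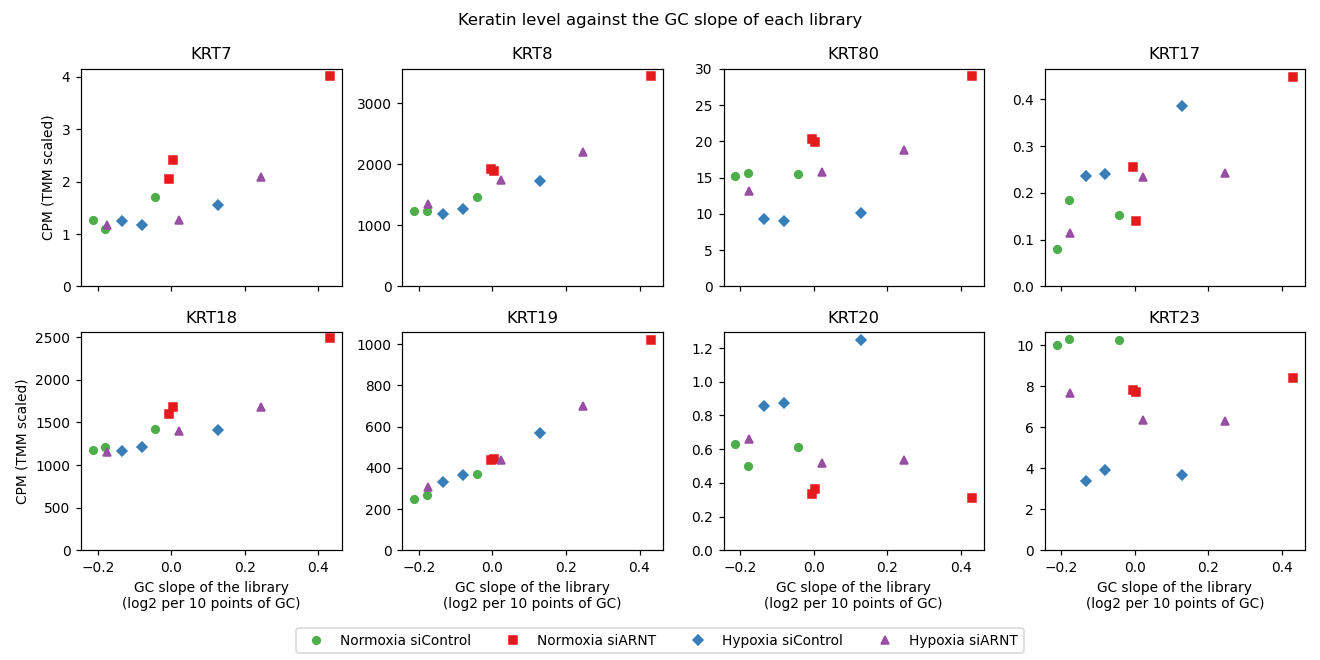
Level of each keratin in CPM (vertical axis, linear from 0) against the GC slope of its library (horizontal axis, log2 per 10 points of GC), 1 point per library, with colour and shape giving the 4 groups. KRT19 runs from 250 CPM in the library with the lowest slope to 1018 CPM in that with the highest, while KRT20 is highest and KRT23 lowest in the 3 hypoxia siControl libraries.

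Per kb of annotated exon, the primary pair led. In normoxia siControl, KRT18 was at 395 ± 40.4 CPM per kb (SD, n = 3), KRT8 at 191 ± 19.8 and KRT19 at 126 ± 27.7, and the ranges of these neighbours in the order did not overlap. KRT80 (3.55 ± 0.058) and KRT23 (3.51 ± 0.049) followed with overlapping ranges, then KRT7 (0.332 ± 0.077) and KRT20 (0.315 ± 0.038), which also overlapped, and KRT17 was lowest at 0.0447 ± 0.017 CPM per kb. With the length of the longest coding transcript in place of all exons, KRT23 stood above KRT80 (5.12 ± 0.071 against 3.96 ± 0.065 CPM per kb) and the ranges of all neighbours were separate. KRT7, a ductal keratin, was thus far below its ductal companion KRT19 in this line. KRT8, KRT18 and KRT19 together held 99.0 to 99.5% of the reads of the 8 genes. The 8 genes took 0.265 to 0.328% of a library's gene counts in normoxia siControl, 0.406 to 0.702% in normoxia siARNT, 0.260 to 0.369% in hypoxia siControl and 0.281 to 0.492% in hypoxia siARNT.

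**Figure D2:**
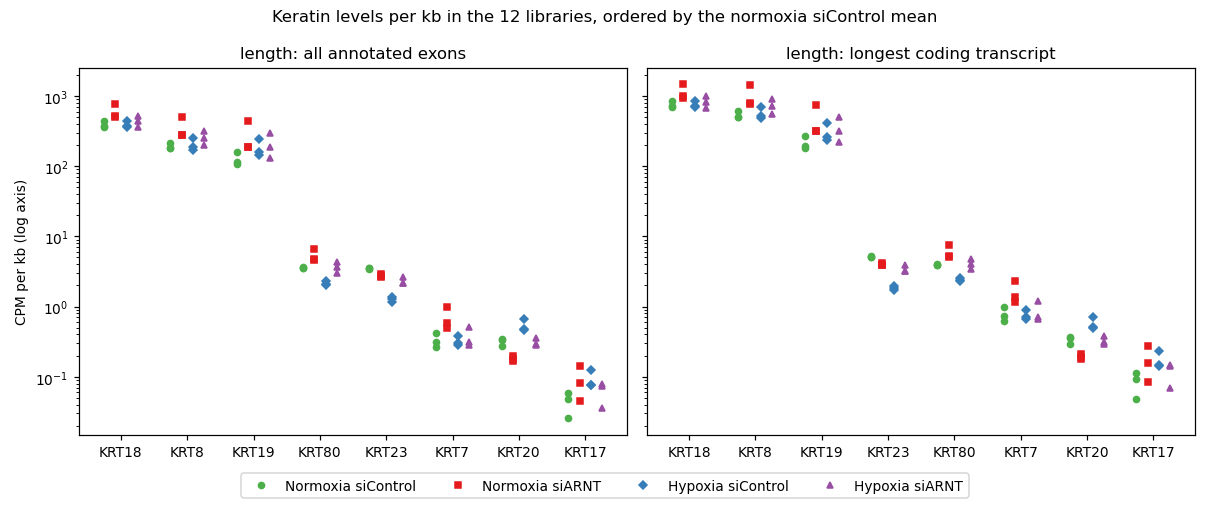
Keratin levels in CPM per kb on a log axis for all 12 libraries, with length taken as all annotated exons (left) or the longest coding transcript (right), genes ordered by their normoxia siControl mean and groups by colour and shape. KRT18, KRT8 and KRT19 lie above 100 CPM per kb in every library, the other 5 keratins lie below 10, and KRT80 and KRT23 change places between the panels.

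With the siRNA against ARNT in normoxia, KRT8, KRT18, KRT7 and KRT80 rose and KRT20 fell. Of the 7 keratins, 5 were thus called (edgeR's quasi-likelihood test, Benjamini-Hochberg adjusted p under 0.05 over 16999 genes), where 20.2% of all tested genes were. KRT17 and KRT19 did not pass, and KRT23, described without a test, was at -0.35 on the log2 scale. The CPM of the groups did not overlap for 6 of the 7, all but KRT17, where 46.5% of tested genes did not overlap. The median log2 fold change of the 7 was 0.89, against 0.01 over all tested genes. With the GC correction, 6 of 7 were called (32.6% of all genes), the same 5 and KRT19, and the median was 0.40. With the replicate letter as a block, 6 of 7 were also called (27.8% of all genes). The block treats same-letter libraries as pairs, and a pairing by letter was not shown. Of the 6 epithelial markers that are not keratins, 2 rose and 1 fell in this comparison. The ranges of their sum, given above and mostly EPCAM, did not overlap.

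KRT8 (chromosome 12, 52897187 to 52949954, minus strand, GRCh38) was at 1235, 1469 and 1233 CPM in normoxia siControl replicates A, B and C and at 1894, 3459 and 1927 CPM in normoxia siARNT. The groups did not overlap, and replicate B of siARNT stood far above the other two. KRT8 rose by 0.89 ± 0.25 on the log2 scale (SE, adjusted p = 0.0286), and by 0.57 ± 0.13 with the GC correction (adjusted p = 0.00679). In hypoxia the levels were 1271, 1722 and 1182 CPM with siControl and 1359, 1741 and 2202 CPM with siARNT. These groups overlapped, and the difference of 0.34 ± 0.24 was not called (adjusted p = 0.328, or 0.12 with the GC correction). KRT8 did not pass the test for hypoxia with either siRNA: the log2 fold change was 0.08 in siControl and -0.46 in siARNT (adjusted p = 0.837 and 0.316).

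KRT18, its partner (chromosome 12, 52948871 to 52952901, plus strand), was at 1179, 1419 and 1213 CPM in normoxia siControl and at 1675, 2489 and 1604 CPM in normoxia siARNT, again with no overlap and with replicate B highest. It rose by 0.60 ± 0.18 (adjusted p = 0.0357), and by 0.33 ± 0.06 with the GC correction (adjusted p = 0.000406). Hypoxia in siControl left KRT18 at 1211, 1415 and 1165 CPM, a log2 difference of -0.01 (adjusted p = 0.982). In hypoxia siARNT it was at 1154, 1394 and 1682 CPM, which was not called against normoxia siARNT (-0.45 ± 0.18, adjusted p = 0.174) except with the GC correction, where it fell by 0.31 ± 0.06 (adjusted p = 0.00177). The GC-corrected interaction (the log2 change with hypoxia under siARNT less the one under siControl) was -0.25 for KRT18 (adjusted p = 0.0428), against -0.44 without the correction (adjusted p = 0.334).

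The annotated KRT8 and KRT18 genes overlap at their ends on opposite strands. The strand setting of the counting is not given in the sources used here, so reads in the overlap cannot be assigned with certainty. The ratio of KRT8 to KRT18 counts was 1.02 to 1.05 in normoxia siControl and 1.13 to 1.39 in normoxia siARNT, without overlap. In hypoxia it was 1.01 to 1.22 with siControl and 1.18 to 1.31 with siARNT, with overlap. No test was run on the ratio. Summed per kb of coding transcript, the type I members exceeded the type II members in every library, by 1.72 to 1.82 times in normoxia siControl, 1.54 to 1.67 times in normoxia siARNT, 1.76 to 1.90 times in hypoxia siControl and 1.59 to 1.65 times in hypoxia siARNT. Both siARNT groups thus lay below both siControl groups in this ratio of type I to type II, without overlap.

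KRT19 (chromosome 17, 41523617 to 41528308, minus strand), the ductal type I chain, was at 250, 369 and 266 CPM in normoxia siControl and at 444, 1018 and 439 CPM in normoxia siARNT. The groups did not overlap, but the difference of 1.10 ± 0.38 was not called (adjusted p = 0.0585). With the replicate letter as a block KRT19 rose by 1.04 ± 0.29 (adjusted p = 0.0273). With the GC correction the levels were 324, 389 and 337 against 440, 574 and 428 CPM, and KRT19 rose by 0.46 ± 0.15 (adjusted p = 0.0379). Hypoxia siControl held 367, 569 and 331 CPM and hypoxia siARNT 308, 437 and 699 CPM. None of the other KRT19 comparisons was called in either fit. The SD in hypoxia siARNT was 199 CPM uncorrected and 65.2 CPM corrected, on means of 481 and 443 CPM.

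KRT7 (chromosome 12, 52232520 to 52252186, plus strand), the ductal type II chain, rested on 54 to 233 reads a library. It was at 1.28, 1.71 and 1.10 CPM in normoxia siControl and at 2.41, 4.01 and 2.04 CPM in normoxia siARNT, without overlap. KRT7 rose by 1.06 ± 0.28 (adjusted p = 0.0241), and by 0.40 ± 0.13 with the GC correction (adjusted p = 0.0288). In hypoxia it was at 1.18, 1.55 and 1.24 CPM with siControl and at 1.17, 1.26 and 2.09 CPM with siARNT, which overlap. Between normoxia and hypoxia siARNT the difference was -0.91 ± 0.29 (adjusted p = 0.0964), and with the GC correction KRT7 fell by 0.63 ± 0.14 (adjusted p = 0.0044).

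KRT80 (chromosome 12, 52168996 to 52192000, minus strand) was the type II keratin called for hypoxia in siControl. It was at 15.2, 15.5 and 15.7 CPM in normoxia siControl and at 8.96, 10.1 and 9.25 CPM in hypoxia siControl, and these groups lay far apart. Hypoxia siARNT, at 13.2, 15.8 and 18.8 CPM, lay above all hypoxia siControl libraries, and normoxia siARNT, at 19.9, 29.02 and 20.4 CPM, was the highest group. KRT80 fell by 0.71 ± 0.15 with hypoxia in siControl (adjusted p = 0.00534) and rose with siARNT in normoxia (0.58 ± 0.15, adjusted p = 0.0213) and in hypoxia (0.75 ± 0.15, adjusted p = 0.00331). With the GC correction these changes were -0.79, 0.26 and 0.66 (adjusted p = 8.44e-08, 0.004 and 4.26e-07). Hypoxia in siARNT was at -0.54 ± 0.15 without a call (adjusted p = 0.0693), and with the GC correction KRT80 fell there by 0.38 ± 0.06 (adjusted p = 0.000541). Whether its hypoxia change differed between the siRNAs depended on the fit: the interaction was 0.17 ± 0.22 (adjusted p = 0.667) without and 0.41 ± 0.09 (adjusted p = 0.00439) with the GC correction.

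KRT20 (chromosome 17, 40875941 to 40885227, minus strand), the intestinal keratin, went the other way from KRT80 in the same comparisons, at a low level. Its reads numbered 17 to 58 a library. It was at 0.631, 0.612 and 0.501 CPM in normoxia siControl, at 0.362, 0.310 and 0.334 CPM in normoxia siARNT, at 0.875, 1.25 and 0.859 CPM in hypoxia siControl and at 0.661, 0.515 and 0.536 CPM in hypoxia siARNT. The groups did not overlap within any of the 4 comparisons. KRT20 rose by 0.76 ± 0.19 with hypoxia in siControl (adjusted p = 0.0129) and fell with siARNT in normoxia (-0.79 ± 0.21, adjusted p = 0.0249) and in hypoxia (-0.78 ± 0.20, adjusted p = 0.0114). In siARNT cells the hypoxia difference was also 0.76 ± 0.22, not called without the GC correction (adjusted p = 0.0728) and called with it (0.76 ± 0.24, adjusted p = 0.0369). The interaction was 0.01 (edgeR, adjusted p = 0.991), given without an SE, since the SE used here is unreliable at so small a change. Its longest transcript has the lowest GC content of the 8. With the GC correction its called changes were 0.84, -0.71 and -0.80 (adjusted p = 0.00324, 0.0284 and 0.00581), and the interaction was -0.09. The KRT20 call for siARNT in normoxia was lost with DESeq2 (adjusted p = 0.0528). It was also lost with no filter on low counts (edgeR, adjusted p = 0.0685). In GC-corrected edgeR fits that left out 1 library, the adjusted p of this change ran from 0.032 to 0.106.

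The region upstream of the KRT20 start is shown because KRT20 was the keratin called higher in hypoxia and lower with siARNT, and HIF binds DNA at a core of ACGTG or GCGTG. The hypoxia change of KRT20 was 0.76 with either siRNA, and its interaction was not called (0.01, edgeR, adjusted p = 0.991). Whether HIF acts on KRT20 was not tested. The 250 bases before the RefSeq start (GRCh38.p14, chr17:40885243-40885492, minus strand, 5′ to 3′ along the gene) are given with matches to either core, on either strand, in capitals.
KRT20 upstream: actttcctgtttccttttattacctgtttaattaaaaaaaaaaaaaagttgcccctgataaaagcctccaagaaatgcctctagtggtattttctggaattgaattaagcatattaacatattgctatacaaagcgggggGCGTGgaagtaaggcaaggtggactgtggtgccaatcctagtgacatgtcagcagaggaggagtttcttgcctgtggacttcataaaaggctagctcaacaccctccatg
There was 1 match, a GCGTG that begins 110 bases before the start on the gene's strand. Over the 35116 entries of the same table, 32.2% of the 250-base windows hold GCGTG, 18.5% hold ACGTG and 43.2% hold either on 1 of the strands, so a match in a window is common. It describes the sequence and shows no binding. Of the 8 keratins, 2 had an entry in that table, and that of KRT8 begins at a start site far upstream and is not shown.

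KRT23 (chromosome 17, 40922696 to 40937634, minus strand) is given by its levels, the pattern it was chosen for. It was at 10.0, 10.2 and 10.3 CPM in normoxia siControl, at 7.72, 8.41 and 7.81 CPM in normoxia siARNT, at 3.94, 3.67 and 3.39 CPM in hypoxia siControl and at 7.69, 6.35 and 6.28 CPM in hypoxia siARNT. All hypoxia siControl libraries lay below all others. The log2 fold change was -1.47 for hypoxia in siControl, a level 2.77 times lower, and -0.23 for hypoxia in siARNT. With siARNT the difference was -0.35 in normoxia and 0.88 in hypoxia, and the interaction was 1.24. The GC correction left these at -1.42, -0.18, -0.39, 0.84 and 1.23. The siRNA against ARNT thus went with a lower KRT23 level in normoxia and a higher one in hypoxia, and the hypoxia siARNT mean (6.77 ± 0.80 CPM, SD, n = 3) stayed below that of normoxia siControl (10.2 ± 0.14).

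KRT17 (chromosome 17, 41619441 to 41624842, minus strand) was close to the limit of the counts, with 6 to 26 reads a library. Its levels ran from 0.081 to 0.186 CPM in normoxia siControl, from 0.140 to 0.448 in normoxia siARNT, from 0.236 to 0.387 in hypoxia siControl and from 0.113 to 0.243 in hypoxia siARNT. Neither the uncorrected nor the GC-corrected fit called it in any comparison, with log2 fold changes of 1.07 for hypoxia in siControl (adjusted p = 0.143) and 1.00 for siARNT in normoxia (adjusted p = 0.152). KRT17 and KRT16 are near-identical in parts of their coding sequence and have pseudogenes, so reads of either are uncertain. With the replicate letter as a block KRT17 rose by 1.07 ± 0.35 for hypoxia in siControl (edgeR, adjusted p = 0.0441). With a separate block for each letter within each siRNA it was not called (1.06 ± 0.36, edgeR, adjusted p = 0.0673).

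**Figure D3:**
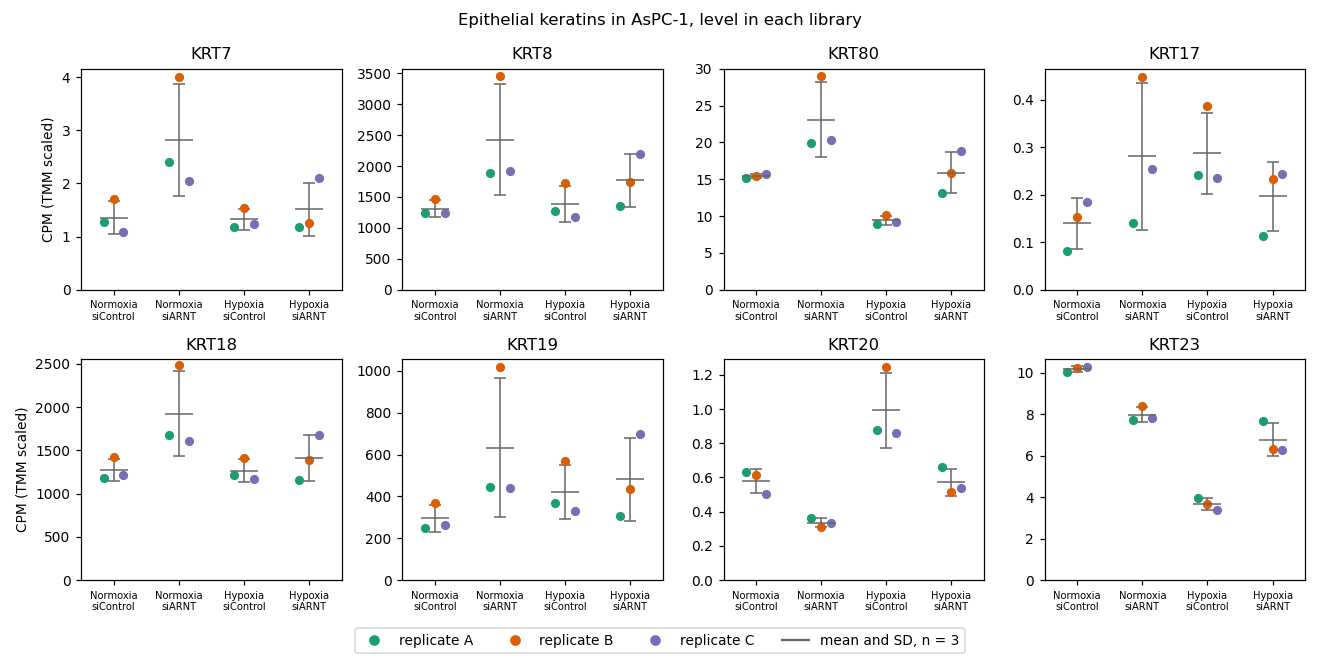
Level of the 8 keratins in each library in CPM (linear axes from 0), with points coloured by replicate and bars giving the mean and SD of 3 libraries. Replicate B of normoxia siARNT is the highest library for KRT7, KRT8, KRT80, KRT17, KRT18 and KRT19, while KRT20 and KRT23 follow the groups, with KRT20 highest and KRT23 lowest in hypoxia siControl.

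Across the comparisons, the calls for hypoxia in siControl were KRT80 (lower) and KRT20 (higher), 2 of 7, where 25.3% of tested genes were called, or 42.7% with the GC correction, where the same 2 were called. With the replicate block KRT17 was added, where 27.9% of genes were called. The rule for KRT23 used that comparison and the interaction, so nothing is read from these counts. For hypoxia in siARNT none of 7 was called by edgeR, where 4.09% of genes were, and 4 had an unadjusted p under 0.05. DESeq2 called 2 there (KRT7 and KRT80), and the GC-corrected fit called 4 (KRT7, KRT18 and KRT80 lower, KRT20 higher), where 21.3% of genes were called. For siARNT in hypoxia 2 of 7 were called (KRT80 higher, KRT20 lower) in both fits, where 29.1% of genes were called without and 46.1% with the correction. For the interaction none of 7 was called by edgeR, where 4.69% of genes were, and 1 had an unadjusted p under 0.05. DESeq2 also called 0 there and gave no adjusted p for KRT17 and KRT20. With the correction 2 were called (KRT80 and KRT18), where 18.3% of genes were. Groups did not overlap in CPM for 3 of 7 in hypoxia against normoxia with siControl (46.8% of tested genes), for 2 in hypoxia against normoxia with siARNT (22.2%) and for 2 in siARNT against siControl in hypoxia (40.3%). In bulk RNA a change in the share of cells that express a keratin and a change in its RNA per cell cannot be told apart.

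The number of keratins called for siARNT in normoxia changed when single libraries were left out. So did the number over all genes, which was 3431 of 16999 with all 12 libraries. Without normoxia siARNT replicate B (GC slope 0.431), none of 7 was called, with KRT8 at 0.53 (adjusted p = 0.0756), KRT18 at 0.36 (0.106), KRT7 at 0.72 (0.0765) and KRT20 at -0.74 (0.0734). Over all genes, 2187 of 17193 were called in that fit. None was called without normoxia siControl replicate A, and 1 without siControl replicate B or C. Over all genes, the fits without siControl A, B and C called 1604 of 17259, 2157 of 17452 and 1571 of 17223. Without siControl replicate A, KRT8 was at 0.83 and KRT80 at 0.55, against 0.89 and 0.58 with all libraries. With the GC correction and without normoxia siARNT replicate B, 3 were called, and KRT8 was at 0.42 (adjusted p = 0.00895). In that fit 4473 of 17193 genes were called. The call of KRT20 for hypoxia in siControl was lost without normoxia siControl replicate C (0.67, adjusted p = 0.0544), and KRT80 was called for hypoxia in siARNT without hypoxia siARNT replicate C (-0.68, adjusted p = 0.0487).

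**Figure D4:**
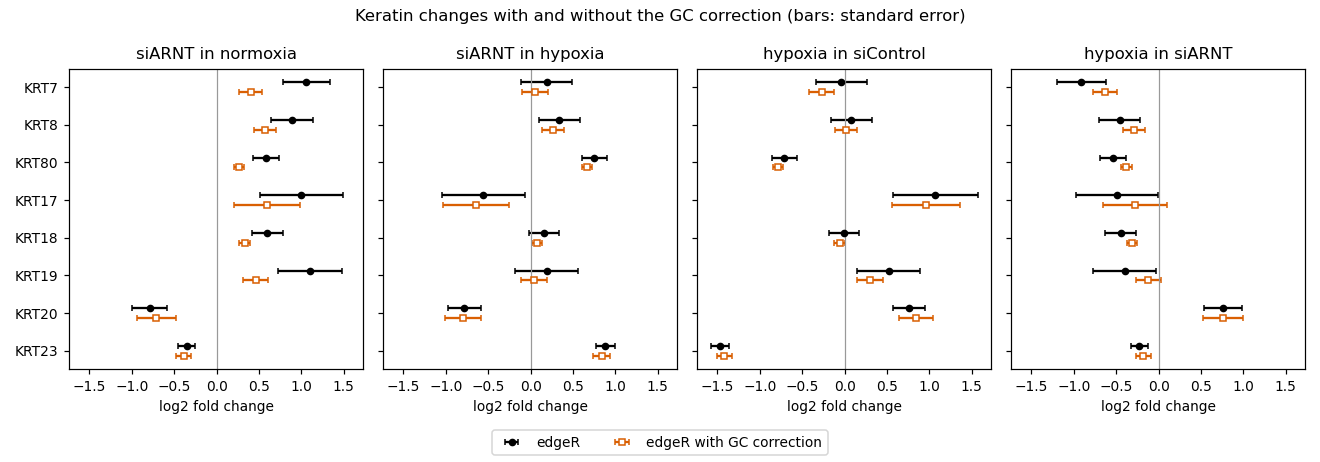
Log2 fold change of each keratin in the 4 comparisons of groups, from edgeR without (black circles) and with (orange squares) the GC correction, with bars of 1 standard error. The corrected changes of KRT7 and KRT19 for siARNT in normoxia lie at 0.40 and 0.46 in place of 1.06 and 1.10, while those of KRT20 and KRT23 move by less than 1 standard error in each comparison.

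Beyond these 8, the files list 47 other protein-coding keratin genes, of which 26 had any read and 3 passed the filter: KRT10, KRT15 and KRT16. Only KRT16, a type I keratin of stressed and hyperproliferative epithelium, was called. It was at 1.70 ± 0.34 CPM in normoxia siControl and 4.44 ± 2.06 CPM in normoxia siARNT (SD, n = 3), rose by 1.39 ± 0.39 (adjusted p = 0.031), and by 0.80 with the GC correction (adjusted p = 0.00615). With the GC correction KRT15 was also called, for hypoxia in siControl (0.37, adjusted p = 0.00184) and for siARNT in hypoxia (-0.29, adjusted p = 0.0101). The annotation holds 51 pseudogenes named after KRT8 and 67 after KRT18. Their summed counts came to 1.74 to 3.35% of the KRT8 counts and 0.639 to 1.30% of the KRT18 counts, and those of 5 KRT19 pseudogenes to 0.303 to 1.05% of the KRT19 counts. For KRT17, with 8 pseudogenes and few reads, they came to 0 to 100% of the parent's counts, so that in 2 libraries the pseudogenes held as many reads as KRT17. How reads that match several places were treated is not given in the sources used here.

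Keratin filaments are anchored at desmosomes and hemidesmosomes, and 20 genes of these junctions were tested. For hypoxia in siControl 7 rose and 1 fell, where 25.3% of all tested genes were called (with the GC correction 15 rose and 1 fell, against 42.7%), with a median log2 fold change of 0.36 against 0.02 over all tested genes, led by PPL (periplakin, a linker of keratin to the membrane, 1.12 ± 0.18, adjusted p = 0.000961) and DSP (desmoplakin, which ties keratin to the desmosome, 0.73 ± 0.06, adjusted p = 1.32e-05). For hypoxia in siARNT none of 20 was called by edgeR (6 at an unadjusted p under 0.05) and 0 by DESeq2, and 7 were called with the GC correction, against 4.09 and 21.3% of all genes. With siARNT in hypoxia 2 rose and 4 fell, close to the 29.1% called over all genes (3 and 11 with the GC correction, against 46.1%). DSG3, a desmosomal cadherin, fell by 1.02 ± 0.06 (adjusted p = 5.09e-07), and DSC2, another, rose by 0.51 ± 0.09 (adjusted p = 0.00131). In normoxia 2 rose and 2 fell with siARNT, against 20.2% called over all genes (5 and 2 with the GC correction, against 32.6%), DSC2 rising by 0.93 ± 0.09 (adjusted p = 5.37e-05) and DSG3 falling by 0.77 ± 0.06 (adjusted p = 1.29e-05). DSP was at 589 ± 23.2 and 980 ± 48.6 CPM in normoxia and hypoxia siControl.

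Of the other intermediate filament genes, 8 of 14 in the files were tested. For hypoxia in siControl 1 rose and 3 fell, against 25.3% of all genes called (1 and 5 with the GC correction, against 42.7%). VIM, the filament of mesenchymal cells, rose by 0.50 ± 0.06 (adjusted p = 0.000154), and the nuclear lamin LMNB1 fell by 0.74 ± 0.07 (adjusted p = 3.06e-05), as did the progenitor filament NES by 0.64 ± 0.10 (adjusted p = 0.000852). With siARNT 3 rose and none fell in normoxia (20.2% of all genes called), and 4 rose and none fell in hypoxia (29.1%). The GC-corrected fit gave 3 higher and 1 lower in normoxia (32.6%), and 5 higher and none lower in hypoxia (46.1%). VIM was at 1560 ± 64.4 CPM in normoxia siControl and at 2100 ± 126 CPM in normoxia siARNT, and rose by 0.43 ± 0.06 (adjusted p = 0.000782), in the comparison in which KRT8 and KRT18 also rose. Of 7 genes that organise keratin filaments, 1 was called for hypoxia in siControl and 0 for hypoxia in siARNT (25.3 and 4.09% of all genes). With siARNT 1 was called in normoxia and 2 in hypoxia (20.2 and 29.1% of all genes). TCHP (trichoplein, a keratin-binding protein) fell by 0.76 ± 0.08 with hypoxia in siControl (adjusted p = 3.37e-05). It rose by 0.39 ± 0.08 with siARNT in hypoxia (adjusted p = 0.00236). DNAJB6, a chaperone that binds KRT18, fell with siARNT in normoxia (-0.32 ± 0.08, adjusted p = 0.0142) and in hypoxia (-0.44 ± 0.08, adjusted p = 0.00105).

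Among 10 tested transcription factors of epithelia, 5 rose and 2 fell with hypoxia in siControl (25.3% of all genes called), and 1 rose and 7 fell with siARNT in hypoxia (29.1%). After the GC correction 6 rose and 2 fell, and 1 rose and 8 fell, in the same order (42.7 and 46.1% of all genes). CDX2, an intestinal factor, rose by 0.57 ± 0.14 with hypoxia in siControl (adjusted p = 0.0107) and fell by 1.01 ± 0.14 with siARNT in hypoxia (adjusted p = 0.000254). It was not called for siARNT in normoxia (-0.34 ± 0.14, adjusted p = 0.103), where KRT20 was called lower, nor for hypoxia in siARNT (-0.10 ± 0.14, adjusted p = 0.706). KLF5, a factor of gut and basal epithelium, fell with siARNT by 1.15 ± 0.09 in hypoxia (adjusted p = 4.01e-06) and by 0.45 ± 0.09 in normoxia (adjusted p = 0.0063). With siARNT in normoxia 1 rose and 4 fell (20.2% of all genes called), and 1 and 5 with the GC correction (32.6%). For hypoxia in siARNT none of 10 was called by edgeR in either fit (2 at an unadjusted p under 0.05 without the correction) and 0 by DESeq2. Of all genes, 4.09% were called there by edgeR without and 21.3% with the correction, so 0 of 10 lies near the uncorrected share.

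Over the 12 libraries, the genes whose log2 levels were most like that of KRT23 were CDC6 (Pearson r = 0.983), AIFM1 (0.975), AHSA1 (0.975), TTF2 (0.973) and AUNIP (0.973), out of 9854 genes averaging 5 CPM or more. These are descriptions over 4 groups, and the points share their libraries. CDC6, which loads the replicative helicase, was at 68.4 ± 2.18 CPM in normoxia siControl and 43.1 ± 2.28 CPM in hypoxia siControl, with 63.6 ± 1.55 and 57.2 ± 4.21 CPM under siARNT in normoxia and hypoxia, the order of groups that KRT23 also had. AUNIP was at 8.60 ± 0.30 CPM in normoxia siControl, 3.92 ± 0.20 in hypoxia siControl and 6.64 ± 0.61 in hypoxia siARNT. Among the keratins, r with KRT23 was 0.689 for KRT80, -0.703 for KRT20 and between -0.435 and 0.225 for the other 5.

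The deposited splicing files hold 37 events in the keratins, 27 in KRT8, 5 in KRT19, 4 in KRT18 and 1 in KRT80, and none in the other 4. Of these, 32 had at least 20 reads in every library and were tested among 40247 events with limma on the log2 ratio of inclusion to exclusion. No keratin event was called in any comparison, where 0.0398% of events were called for hypoxia in siControl, 0.0497% for hypoxia in siARNT, 0.0248% for siARNT in normoxia, 0.0447% for siARNT in hypoxia and 0.0497% for the interaction. At an unadjusted p under 0.05 there were 1, 1, 0, 2 and 1 keratin events in these comparisons. With at least 5 reads of each form in every library, a rule added after the data were seen, 14 keratin events were tested among 10613 and none was called, where the shares of events called in the same order were 0.0471, 0.0471, 0.905, 1.54 and 0%. At an unadjusted p under 0.05 there were then 0, 0, 4, 3 and 0 keratin events. In 15 of the 37 events a form was listed at 0 in a library while another library held 100 reads or more of it, so a listed 0 was not read as a level. An upstream exon of KRT8, chosen after its values were seen, was included in 79.1, 79.7 and 76.2% of reads in normoxia siControl and in 65.9, 61.2 and 75.3% in normoxia siARNT. In hypoxia it was included in 76.2, 69.8 and 82.0% with siControl and in 69.0, 67.1 and 58.6% with siARNT. The exon lies at 53343240 to 53343301 on chromosome 12 in the files' coordinates, whose build is not named. This position is outside the GRCh38 span of KRT8 given above, so event and gene coordinates cannot be set side by side. Each inclusion value rested on 61.0 to 245 reads. For this form of the exon, all siARNT libraries lay below all siControl libraries at the same oxygen level. The differences in log2 odds of -0.77 ± 0.35 in normoxia and -0.78 ± 0.35 in hypoxia were not called (limma, adjusted p = 0.752 and 0.615). Longer forms with the same start, ending at 53343362 and 53343369, overlapped between the siRNAs at both oxygen levels. In the form ending at 53343362, siARNT reached 76.7% in normoxia and 69.2% in hypoxia. The lowest siControl values there were 76.2 and 68.5%. How many events separate in this way over all events was not counted.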

How the data were processed

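RNA of 12 AsPC-1 libraries was read single-end from stranded poly(A) libraries, per the labels' protocols. The submitters' processing notes name Trimmomatic, STAR 2.4.2a and GRCh38.p10, with no settings. The gene files hold counts of reads per gene, deposited by the authors, and HTSeq as the counter appears only in the names of the files. Lines for reads assigned to no gene held 22.71 to 25.2% of reads and were left out. Symbols were paired for 51996 of 57820 IDs (99.35% of counts). The event files hold deposited read counts per junction, intron coverage (a signal), and a fraction of inclusion computed by the authors, per the file headers. The fraction was recomputed from the counts. Their coordinates are in a build that is not named, and no conversion was made. Gene coordinates, exon lengths and GC content are from GENCODE 29.

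The gene tests used edgeR 4.0.16 in R 4.3.3 (TMM, filterByExpr, robust quasi-likelihood, all 12 libraries with 1 mean per group), with Benjamini-Hochberg adjustment over 16999 genes. CPM are TMM scaled. Each SE of an edgeR log2 change is the size of that change over the square root of its F statistic. This is unreliable where the change is very small. The GC correction subtracts, per library, a loess trend (span 0.5) of log2 deviations on the GC content of each gene's longest transcript. Events with at least 20 reads in every library were tested with limma 3.58.1 on log2 ratios with 0.5 added. DESeq2 1.42.0 was an alternative. The tests were also run on simulated data whose spread between replicates was set in advance and not taken from these libraries. Nothing about the keratins is read from that run. Values of 2 marker genes are not reported here. The members and gene lists were chosen with earlier results of these data known. Named were all 8 keratins, other keratins where called, of each list and comparison up to 3 called genes (averaging 5 CPM or more) with the largest change, and the 5 genes most like KRT23. Replicates are triplicate wells of 1 line per the labels, so p-values measure the spread between wells. Same-letter libraries deviated together from their group means in 2 comparisons. The correlations were 0.553, 0.758 and 0.275 for letters A, B and C in siARNT against siControl in normoxia. They were 0.277, 0.621 and 0.282 in hypoxia against normoxia with siControl. In comparisons with hypoxia siARNT the lowest was negative (-0.764 and -0.6). On GC-corrected values the lowest in the 2 comparisons without hypoxia siARNT were 0.035 and 0.079. Libraries of different letters also deviated together on uncorrected values. Normoxia siControl A correlated at 0.597 with normoxia siARNT C and at 0.335 with hypoxia siControl C. Normoxia siControl C correlated at 0.38 with normoxia siARNT A. Normoxia siControl B was at -0.707 and -0.667 with normoxia siARNT A and C. A pairing by letter is thus not shown, and blocked fits are given as alternatives. Blocked values stand beside the results they change. The block was fitted over all 12 libraries, including those of hypoxia siARNT. Counts of replicates differed by more than sampling noise in all pairs (chi-square over its degrees of freedom, 4.34 to 91.07), so none was counted as a repeat. Confidence intervals were not computed.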

Additional observations from a re-analysis of the deposited data

Results flagged for a closer look

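Of the genes in the lists set beside the keratins, 11 had a hypoxia change that differed between siARNT and siControl by the interaction test (edgeR, adjusted p under 0.05). They were 2 of 20 junction genes, 3 of 8 other filament genes and 1 of 7 keratin organisers. The rest were 3 of 10 transcription factors and 2 of 6 epithelial markers. Of all tested genes 4.69% were called, and the lists were chosen with earlier results of these data known. The difference, siARNT minus siControl, was -0.53 for DSP, 0.34 for PKP4, 0.61 for LMNB1, 0.56 for NES, -0.38 for VIM, 0.46 for TCHP, -0.64 for KLF4, -0.70 for KLF5, -0.37 for TFAP2A, -1.21 for MUC1 and -0.42 for CDH1. Adjusted p ran from 0.000534 for KLF4 to 0.0494 for NES. MUC1, a membrane mucin, was at 16.5 ± 0.58 CPM in normoxia siControl, 42.1 ± 1.95 in hypoxia siControl and 17.7 ± 0.91 in hypoxia siARNT. With the GC correction its difference was -0.55 and was no longer called (adjusted p = 0.42), while the other 10 kept their direction and their call. Of all tested genes 18.3% were called in that fit.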

How the results depend on the processing

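The 9 calls of single keratins kept their direction in all 173 alternative fits of them, and 33 of these fits lost the call. Where the number of keratins called changed by more than 1.5 times it did so as follows. For hypoxia in siARNT, 0 called became 1 with no filter on low counts, 1 with the replicate block, 4 with the GC correction, 4 with the replicate block and GC correction, 2 with DESeq2, 0 to 1 leaving out 1 replicate, and 3 in each GC-corrected fit without 1 replicate. For siARNT in normoxia, 5 became 2 with no filter on low counts, 0 to 6 leaving out 1 replicate, and 3 to 5 with the GC correction and 1 replicate left out. For the interaction, 0 became 2 with the GC correction, with or without the replicate block, and 1 to 2 when 1 replicate was also left out. For hypoxia in siControl, 2 became 1 to 2 leaving out 1 replicate. GC-corrected fits without a replicate, and splicing events with at least 5 reads of each form (14 keratin events, 0 called), were chosen after seeing the data. Calls over all genes moved too. For siARNT in normoxia they ran from 1571 to 3437 leaving out 1 replicate, against 3431 with all libraries. For hypoxia in siARNT they were 696 without and 3627 with the GC correction. The cause of these changes was not tested.

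Changes that were not called reversed in some fits. KRT18 for hypoxia in siControl was 0.003 with no filter on low counts. The KRT20 interaction was -0.017 with no filter, -0.087 with the GC correction and -0.077 with the GC correction and replicate block. Leaving out 1 replicate gave ranges of -0.156 to 0.146 for KRT7, -0.082 to 0.19 for KRT8 and -0.081 to 0.078 for KRT18 (hypoxia in siControl), -0.879 to 0.039 for KRT17 and -0.767 to 0.127 for KRT19 (hypoxia in siARNT), -0.114 to 0.352 for KRT7 and -0.18 to 0.449 for KRT19 (siARNT in hypoxia), and -0.101 to 0.191 for the KRT20 interaction.

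Per kb of the longest coding transcript, normoxia siControl levels were 749 CPM per kb for KRT18, 539 for KRT8, 212 for KRT19, 5.12 for KRT23, 3.96 for KRT80, 0.775 for KRT7 and 0.0847 for KRT17. With the replicate letter as a block, 6 keratins were called for siARNT in normoxia (KRT19 added), 3 for hypoxia in siControl (KRT17 added) and 2 for siARNT in hypoxia. In the first 2 of these comparisons it changed no other call among the 7 keratins. Of all calls for hypoxia in siControl, 41.2% were higher without and 52% with the GC correction, and total count scaling moved the share from 53.2 to 75.3% for the interaction, from 49.6 to 63.8% for siARNT in hypoxia and from 53.9 to 65.8% for hypoxia in siARNT. At 17 to 58 reads for KRT20 and 6 to 26 for KRT17, counting error limits both.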
